A study of Mus musculus with 15 samples.

Results

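The genes described here are the subunits of voltage-gated sodium, calcium and potassium channels and of the hyperpolarization-activated HCN channels. They were chosen by symbol alone, as every mouse gene whose symbol belongs to the Scn alpha and beta, Cacna1, Cacna2d, Cacnb, Hcn or the pore-forming Kcna, Kcnb, Kcnc, Kcnd, Kcnf, Kcng, Kcnh, Kcnq and Kcnv families, which gave 73 of the 57180 Ensembl genes in the tables. Their RNA was measured by RNA-seq of polyA RNA from mouse brainstem in 15 libraries of 2 experiments. The AMPK experiment had 3 libraries of genotype AMPK+/+ (WT) and 3 labelled AMPK-/-, from mice lacking the α2 subunit of AMP-activated protein kinase and from WT littermates. The Lmx1b experiment had 3 libraries of LMX1B+/+ (WT), 3 labelled LMX1B+/- and 3 labelled LMX1B-/-, from prenatal mice, in which loss of both copies of this transcription factor is lethal. The labels give no age, sex or number of animals per library. The study's methods speak of mice in the first days after birth, without tying that age to the sequenced tissue of the AMPK experiment. The sources name no Cre line, promoter or treatment behind these genotypes, and how each allele was made was not given in the sources used here.

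Voltage-gated channels open when the membrane potential changes and so set whether, how fast and how regularly a neuron fires. Sodium channel alpha subunits form the pore that carries the upstroke of the action potential, and beta subunits tune its gating and placement. Calcium channel alpha-1 subunits admit the calcium that triggers transmitter release (P/Q and N type), couples activity to gene expression (L type) or drives bursts near rest (T type), while the alpha-2-delta and beta subunits bring them to the membrane. Kv channels repolarize the cell, Kv7 channels brake repetitive firing, and HCN channels carry the inward current that paces rhythmic neurons, including those of the brainstem networks for breathing.

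Depth differed sharply within the AMPK experiment. WT 2 held 291212 counts and AMPK-/- 3 held 335986 counts in genes, against 14975095 to 17384171 in the other 4 libraries and 28833130 to 37441679 in the Lmx1b experiment. A count of 3, taken as the limit that a count of 0 allows, was therefore worth 9.98 and 9.07 CPM (each count divided by the TMM-scaled total of its library) in the shallow libraries and 0.0676 to 0.198 CPM in all others, so a channel gene near that level in WT 2 or AMPK-/- 3 rested on a handful of reads. Such limits cover counting error only. The targeted genes separated the groups in part: Lmx1b stood at 1.45, 1.13 and 0.848 CPM in the Lmx1b-/- libraries, but at 30.5, 11.9 and 14.2 CPM in the Lmx1b+/- against 22.5, 16.0 and 9.73 CPM in the WT libraries, and Prkaa2, which encodes AMPKα2, stood at 25.4, 22.3 and 12.1 CPM in the libraries labelled AMPK-/- against 21.9, 26.6 and 29.7 CPM in WT. These counts cover the whole gene and do not show which exons were read. The groups are therefore named as labelled, and all p-values measure the spread between libraries, which may be technical.

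The 250 bases before the annotated start are shown for 3 channel genes. They were taken from the genes with a promoter entry that were called lower in both experiments. These were ranked by the larger of their 2 adjusted p, and the 3 with the smallest value are shown. Where a gene had several entries, the first was used. The sequences come from RefSeq for build GRCm38.p6, are given 5' to 3' on the strand of the gene, and have the GC box GGGCGG or its reverse complement CCGCCC in capitals. Entries were found for 49 of the 73 genes, and Cacna1a had none.
Hcn2, chr10:79716384-79716633 (+ strand): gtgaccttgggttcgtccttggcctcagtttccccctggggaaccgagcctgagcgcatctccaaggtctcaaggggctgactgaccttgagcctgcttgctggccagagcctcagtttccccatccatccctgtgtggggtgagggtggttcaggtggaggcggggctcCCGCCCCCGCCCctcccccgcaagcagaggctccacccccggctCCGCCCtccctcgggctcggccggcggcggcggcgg
Cacna1i, chr15:80286988-80287237 (+ strand): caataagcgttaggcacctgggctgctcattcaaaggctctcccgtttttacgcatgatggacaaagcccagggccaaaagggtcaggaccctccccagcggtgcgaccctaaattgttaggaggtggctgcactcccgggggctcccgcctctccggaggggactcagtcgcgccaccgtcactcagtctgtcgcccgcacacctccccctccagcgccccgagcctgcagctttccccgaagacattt
Kcnc1, chr7:46396218-46396467 (+ strand): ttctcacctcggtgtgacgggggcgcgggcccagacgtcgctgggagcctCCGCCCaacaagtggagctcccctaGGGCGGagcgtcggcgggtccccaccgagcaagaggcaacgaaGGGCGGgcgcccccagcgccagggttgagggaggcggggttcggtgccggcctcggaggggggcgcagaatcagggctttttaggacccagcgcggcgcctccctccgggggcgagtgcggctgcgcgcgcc
The windows of Hcn2 and Kcnc1 each held 3 GC boxes and that of Cacna1i held 0. Over the 63 windows of channel genes, 46.0% held a GC box on either strand, against 32.7% of all 32851 windows, and the median GC share was 62.0% against 52.4%. The TATA box TATAAA was found in 2 channel windows (3.17%, against 12.4% of all windows), the homeodomain core TAATTA in 0 (against 4.84%), and the left arm of the RE1 motif, TTCAGCACC, in 1 (against 0.301%). Each word was searched on its own, so matches of different words could share bases, and a match is a description of letters, not a binding site.

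The question of the AMPK experiment was which genes depend on AMPKα2 in the brainstem regions that control breathing. Calcium channel alpha-1 genes, the Kv3 gene Kcnc1 and the pacemaker gene Hcn2 were lower in the libraries labelled AMPK-/-, while the sodium channel genes Scn3a, Scn9a and Scn3b and the silent subunit Kcng1 were higher. Of the 73 genes, 60 passed the filter on low counts and entered the quasi-likelihood test of edgeR. At an adjusted p under 0.05, 19 were called lower and 4 higher. Over all 17397 genes tested, 8.94% were called, 5.17% lower and 3.77% higher, against 38.3% of the tested channel genes. The median log2 fold change was -0.37 over the tested channel genes and -0.01 over all tested genes. For 19 of the 60 all AMPK-/- libraries lay below all WT libraries (12.7% of all tested genes did) and for 4 they lay above (13.9%). In tissue RNA, fewer neurons of a type and less RNA per neuron cannot be told apart. The calls depended on depth and on single libraries. By other tests, DESeq2 called 10 channel genes, all lower, and gave no adjusted p to 6 of the 23 (2 of the 4 called higher among them), and limma on log2(RPKM + 1) called 0 (22 at an unadjusted p under 0.05). Without both shallow libraries, 0 channel genes were called by the same edgeR test (27 at an unadjusted p under 0.05, and 6 of all genes called), although all 23 kept their direction. Without WT 3, AMPK-/- 1 or AMPK-/- 3 alone, 12, 13 and 10 channel genes were called.

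**Figure D1:**
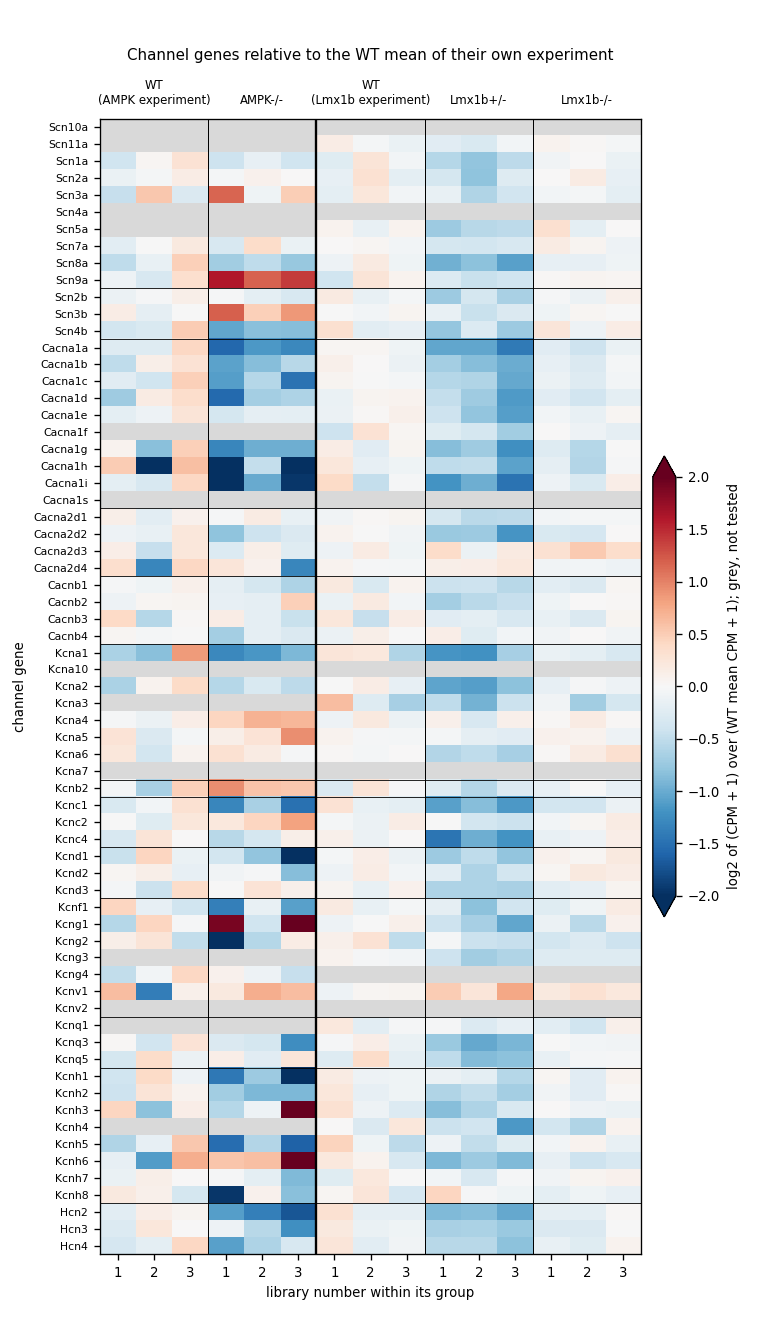
Each cell is the log2 ratio of CPM plus 1 in a library to the WT mean CPM plus 1 of the same experiment, with 67 of the channel genes in rows by family, the 15 libraries in columns by group, and grey where a gene was not tested. Blue cells fill the Lmx1b+/- columns, where 47 of 66 tested genes were called lower, and are more mixed in the AMPK-/- columns, where 19 of 60 were called lower and 4 higher.

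Among the calcium channel alpha-1 genes, 7 of the 8 tested were called lower in AMPK-/- and 0 higher, with a family median of -1.17 on the log2 scale. Cacna1a, the P/Q-type pore of fast synapses, stood at 56.2, 56.6 and 90.0 CPM in WT libraries but 22.2, 29.99 and 27.2 CPM in AMPK-/- libraries. The groups did not overlap, and the log2 fold change was -1.43 (SE 0.22, adjusted p = 0.000664). Of the T-type genes, Cacna1g stood at 57.2, 29.9 and 76.5 CPM in WT and 21.5, 27.1 and 27.2 CPM in AMPK-/-, a change of -1.31 (SE 0.23, adjusted p = 0.00155). Cacna1i stood at 32.8, 29.9 and 50.5 CPM in WT against 8.79, 18.2 and 9.07 CPM, a change of -1.60 (SE 0.28, adjusted p = 0.00143). These 3 genes were called in all 6 fits that left out 1 library. The third T-type gene, Cacna1h, stood at 20.5, 0 and 21.8 CPM in WT and 2.64, 9.85 and 0 CPM in AMPK-/-. Both zeros are those of the shallow libraries, the groups overlapped, and without AMPK-/- 3 the change of -1.68 (adjusted p = 0.018) became -1.57 and lost its call. The N-type Cacna1b and the L-type Cacna1c and Cacna1d fell by 0.90, 1.00 and 1.03 on the log2 scale, and none of the 3 was called without WT 3 (-0.54, -0.60 and -0.48), without AMPK-/- 1 (-0.74, -0.81 and -0.63) or without AMPK-/- 3 (-0.92, -0.92 and -1.03). Cacna1d also lost its call without WT 2 (-0.99). The R-type Cacna1e, at 90.8, 96.5 and 124 CPM in WT and 81.6, 91.3 and 90.7 CPM in AMPK-/-, was not called. Of the accessory subunits, 0 of 4 alpha-2-delta and 0 of 4 beta genes were called. Cacna2d2 was nearest to the threshold, at 55.4, 53.2 and 69.5 CPM in WT and 33.7, 44.1 and 48.4 CPM in AMPK-/- (log2 difference -0.61, adjusted p = 0.0566), and Cacnb4 stood at 133, 126 and 129 CPM in WT against 80.4, 115 and 106 CPM. The median log2 fold change was -1.17 over the pore genes, -0.26 over the alpha-2-delta genes and -0.27 over the beta genes, and the difference between these families was not tested.

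The Kv3 channels repolarize fast-spiking neurons. Kcnc1 stood at 158, 189.7 and 242 CPM in WT and 79.1, 126 and 69.5 CPM in AMPK-/-. The groups did not overlap, the change was -1.04 (SE 0.21, adjusted p = 0.00363), and it was called in all 6 fits that left out 1 library. Its paralogs Kcnc2, at 51.2, 43.3 and 60.2 CPM in WT against 59.9, 69.5 and 90.7 CPM, and Kcnc4, at 44.3, 66.6 and 55.6 CPM in WT against 37.3, 43.1 and 60.4 CPM, were not called. The axonal Kv1 gene Kcna1 stood at 72.4, 63.2 and 204 CPM in WT and 45.6, 50.1 and 60.4 CPM in AMPK-/-. WT 3 alone set most of that difference: the change of -1.32 (SE 0.29, adjusted p = 0.00696) became -0.49, without a call, when WT 3 was left out. Its frequent partner Kcna2 stood at 264, 429 and 532 CPM in WT against 276, 331 and 284 CPM, with overlapping groups and no call. Of the 4 tested Kv7 genes, whose slow current brakes firing, 2 were called lower (against 5.17% of all tested genes), with a family median of -0.64. Kcnq3 stood at 111, 83.2 and 132 CPM in WT against 89.1, 84.8 and 45.3 CPM and was not called. Among the ether-a-go-go family, Kcnh1, Kcnh2 and Kcnh5 were called lower, by 1.00, 0.75 and 1.20 on the log2 scale. Each lost its call in 4 of the 6 fits that left out 1 library. All 3 lost it without WT 2 (-0.92, -0.66 and -1.21), WT 3 (-0.88, -0.58 and -0.51) or AMPK-/- 3 (-0.90, -0.70 and -1.13), and in addition Kcnh1 and Kcnh5 did so without AMPK-/- 1 (-0.75 and -0.78) and Kcnh2 without AMPK-/- 2 (-0.69). The Kv4 gene Kcnd2 (79.1, 83.2 and 68.7 against 73.5, 75.4 and 42.3 CPM) and Kcnh7 (36.5, 43.3 and 40.3 against 39.2, 34.8 and 21.2 CPM) were not called.

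Hcn2, a pacemaker channel gated by cyclic nucleotides, had the smallest adjusted p of all channel genes in this comparison. It stood at 243, 306 and 292 CPM in the WT and 130.1, 108 and 84.6 CPM in the AMPK-/- libraries, so that every WT library lay above every AMPK-/- library. The log2 fold change was -1.30 (SE 0.18, adjusted p = 0.000182), and the call held in all 6 fits that left out 1 library. With the trends of each library on gene length and GC content removed it was -0.60 and no longer passed the threshold. Hcn4, the slow pacemaker subunit, stood at 11.9, 13.3 and 20.8 CPM in WT against 6.67, 9.65 and 12.1 CPM, a difference of -0.94 (SE 0.30, adjusted p = 0.0512) that missed the threshold.

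The sodium channel genes divided. Scn8a, the main alpha subunit of mature axon initial segments, stood at 177, 226 and 353 CPM in WT and 154, 176 and 148 CPM in AMPK-/- (log2 fold change -0.66, SE 0.20, adjusted p = 0.0446). It lost its call without WT 2 (-0.71), WT 3 (-0.24), AMPK-/- 1 (-0.61) or AMPK-/- 3 (-0.60). Scn4b, a beta subunit that accompanies it, was also lower, at 222, 229.6 and 404 against 138, 159 and 157 CPM (log2 fold change -0.96, SE 0.20, adjusted p = 0.0052). The call of Scn4b held in all 6 fits that left out 1 library. In the other direction, Scn9a (Nav1.7), known from sensory and autonomic neurons, stood at 7.97, 6.66 and 11.1 CPM in WT and 28.0, 20.8 and 24.2 CPM in AMPK-/-, a rise of 1.37 (SE 0.26, adjusted p = 0.00285) with no overlap. The value of the shallow WT 2 lay below the 9.98 CPM that 3 counts were worth there. The call of Scn9a held in all 6 fits that left out 1 library, but not in limma on log2(RPKM + 1), at 0.72 (adjusted p = 0.225), or in edgeR without both shallow libraries, at 1.36 (adjusted p = 0.123). DESeq2 gave a value of 1.39 without an adjusted p. Scn3b, a beta subunit known for its high levels in the immature brain, stood at 25.3, 19.97 and 22.6 CPM in WT against 53.4, 32.1 and 42.3 CPM (log2 fold change 0.85, SE 0.23, adjusted p = 0.0203), and Scn3a, the alpha subunit of the embryonic brain, at 24.6, 49.9 and 27.9 CPM in WT against 77.4, 32.3 and 48.4 CPM (log2 fold change 0.91, SE 0.28, adjusted p = 0.0409), with overlapping groups. Neither was called by DESeq2 or limma. Both lost their calls without WT 3 (0.82 and 0.94), AMPK-/- 1 (0.57 and 0.34) or AMPK-/- 3 (0.88 and 0.96). The silent subunit Kcng1 stood at 4.48, 9.98 and 7.06 CPM in WT against 29.5, 5.18 and 33.2 CPM, a difference of 1.67 (SE 0.47, adjusted p = 0.0274) carried by 2 of the 3 AMPK-/- libraries, and lost its call without WT 2 (1.72), AMPK-/- 1 (0.69) or AMPK-/- 3 (1.57). Scn1a, at 232, 316 and 374 against 229, 274 and 233 CPM, and Scn2a, at 68.3, 73.2 and 83.8 against 73.5, 79.7 and 75.5 CPM, were not called. Markers of peripheral sensory ganglia were also higher in AMPK-/-. Their summed level was 16.2 to 53.2 CPM in WT and 55.6 to 139 CPM in AMPK-/-, and 3 of the 6 tested were called higher, against 3.77% of all tested genes. The channels that define pain-sensing neurons, Scn10a and Scn11a, had at most 3 counts in each of the 6 libraries. In the Lmx1b experiment the same markers summed to 108 to 119 CPM in Lmx1b+/- against 63.3 to 89.9 CPM in WT, whereas Scn9a was called lower there. The part of ganglion tissue in the rise of Scn9a in AMPK-/- was not tested.

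**Figure D2:**
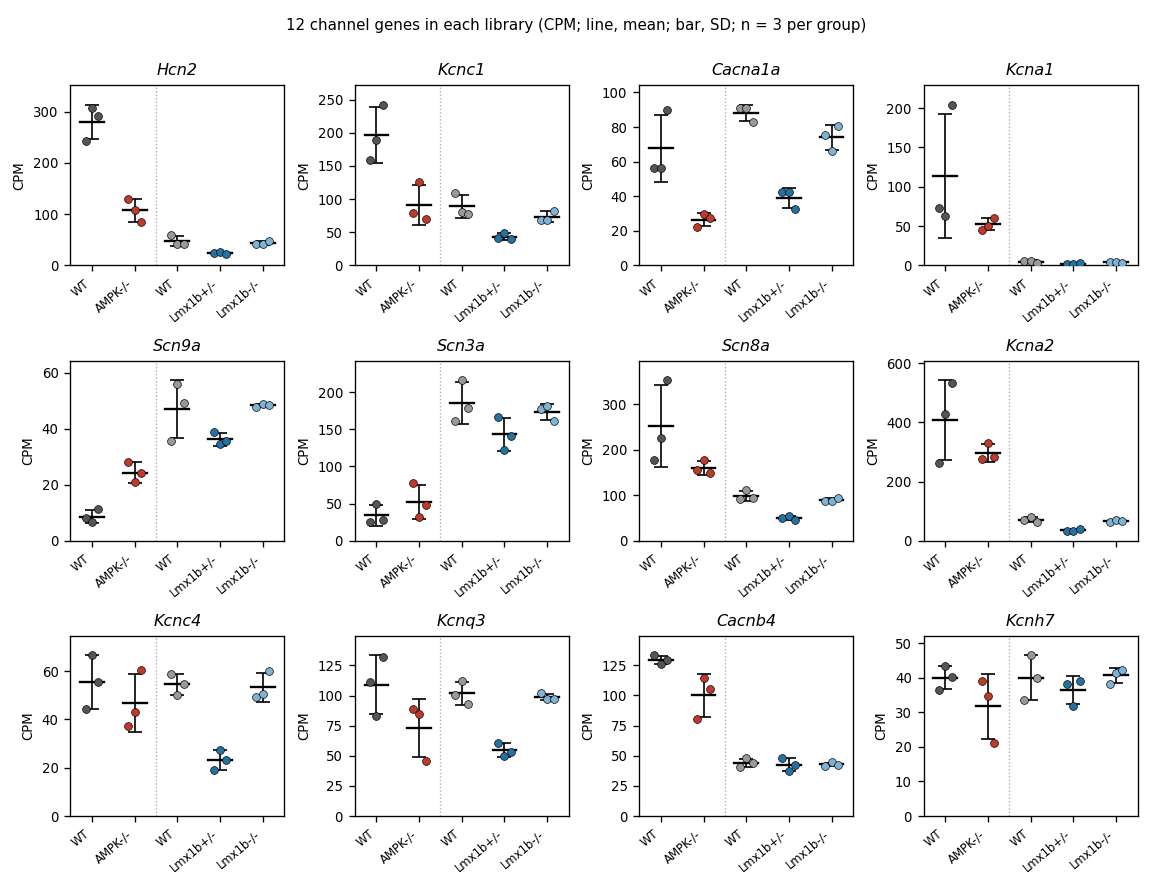
CPM of 12 channel genes in each library by group, with the line at the mean and the bar at 1 SD of 3 libraries, and the dotted line separating the AMPK experiment from the Lmx1b experiment. Hcn2, Kcnc1 and Cacna1a were lower in AMPK-/- and in Lmx1b+/- than in the WT of each experiment, Scn9a and Scn3a had higher means in AMPK-/-, and Cacnb4 and Kcnh7 overlapped between Lmx1b+/- and WT.

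One WT library of the AMPK experiment stood apart. In WT 3 the summed level of 15 skeletal muscle markers was 995 CPM, against 11.6 to 26.6 CPM in the other 5 libraries, and the muscle channels Scn4a and Cacna1s stood at 5.43 and 9.69 CPM there, with at most 3 counts in each other library. Neither gene passed the filter, so neither was tested. WT 3 was also the WT library with the most RNA of Kcnc1, Kcna1, Scn4b, Scn8a and Cacna1a given above. The 23 calls all kept their direction without it and 12 kept their call, 10 lower and 2 higher. Markers of oligodendrocytes and astrocytes did not separate the groups of this experiment, with 0 of 9 and 0 of 7 called. Of 10 pan-neuronal genes 3 were called higher and 1 lower, and their sum was 4902 to 6220 CPM in WT and 6182 to 6693 CPM in AMPK-/-. Choroid plexus genes summed to 12.1 to 18.7 CPM in WT and 36.0 to 127 CPM in AMPK-/-, with 1 of 3 tested called higher. Erythroid genes summed to 246 to 322 CPM in WT and 299 to 485 CPM in AMPK-/-, with 2 of 5 tested called higher. Over all tested genes 3.77% were called higher. In all, 13 channel genes were not tested in this experiment, and in each of them at most 4 of the 6 libraries held more than 3 counts.

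The Lmx1b experiment asked how this transcription factor shapes the brainstem centers for breathing before birth, and which genes take part. Most of the tested channel genes were called lower in the libraries labelled Lmx1b+/-. Of 66 channel genes tested (7 did not pass the filter), 47 were called lower (71.2%) and 1, Kcnv1, was called higher, against 17.3% and 19.4% of all 21729 genes tested, or 36.7% in either direction. The median log2 fold change was -0.64 over the channel genes and -0.03 over all genes, and 62 of the 66 lay below 0. All 3 Lmx1b+/- libraries lay below all 3 WT libraries for 48 channel genes (72.7%), which held for 21.9% of all tested genes, and above them for 2 (against 23.4%). Between 40 and 47 channel genes were called in the 9 fits that each left out 1 library, 35 of the 48 in every one of them, and 49 were called by DESeq2.

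At least 1 member of each of the 13 families was called lower in Lmx1b+/-. Of the sodium channel genes, 7 of 8 tested alpha and 4 of 4 beta genes were called lower. Scn8a stood at 91.6, 112 and 92.9 CPM in WT and 50.2, 55.2 and 45.9 CPM in Lmx1b+/- (log2 fold change -0.97, SE 0.10, adjusted p = 2.16e-05). Scn1a stood at 47.7, 67.7 and 54.1 CPM in WT against 37.6, 32.4 and 39.0 CPM (log2 fold change -0.64, SE 0.12, adjusted p = 0.00157), with no overlap for either gene. The alpha subunits typical of immature neurons had smaller changes: Scn2a stood at 195, 272 and 192 CPM in WT against 171, 126 and 183 CPM (log2 fold change -0.46, SE 0.16, adjusted p = 0.0426), and Scn3a at 162, 217 and 178 CPM in WT against 167, 122 and 141 CPM (log2 fold change -0.37, SE 0.13, adjusted p = 0.0426). These smaller changes lost their call when single libraries were left out, Scn2a in 5 and Scn3a in 7 of 9 such fits, with the values nearest to 0 being -0.27 for Scn2a without WT 2 and -0.25 for Scn3a without WT 2. Scn3b, at 248 ± 10.4 against 203 ± 21.5 CPM (mean ± SD, n = 3), and Scn9a, at 35.6, 56.1 and 49.1 against 38.7, 34.4 and 35.5 CPM, lost it in 8 and 7 of the 9 fits, with values of -0.38 to -0.20 and -0.54 to -0.23.

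Of the calcium channel pores, 8 of 9 tested alpha-1 genes were called lower in Lmx1b+/-, with a family median of -0.84. Cacna1a had the smallest adjusted p of the whole set: it stood at 91.2, 90.7 and 83.0 CPM in WT and 42.3, 42.6 and 32.5 CPM in Lmx1b+/-, a change of -1.18 (SE 0.12, adjusted p = 1.29e-05). Cacna1b stood at 141, 132 and 121 CPM in WT against 81.4, 72.4 and 65.8 CPM (log2 fold change -0.84, SE 0.11, adjusted p = 8.04e-05), and the R-type Cacna1e at 161, 177 and 187 CPM in WT against 131, 101 and 81.4 CPM (log2 fold change -0.75, SE 0.14, adjusted p = 0.00146). Of the T-type genes, Cacna1g fell by 0.92, Cacna1h by 0.68 and Cacna1i by 1.28 on the log2 scale, all with WT and Lmx1b+/- libraries apart. The accessory genes were uneven. Cacna2d1 (129, 137 and 139 against 106, 92.4 and 93.0 CPM) and Cacna2d2 (117, 112 and 107 against 66.2, 67.1 and 49.1 CPM) were called lower, as were Cacnb1 and Cacnb2, whereas Cacnb4 (40.7, 47.9 and 43.7 against 48.3, 37.2 and 42.5 CPM), Cacnb3 (131, 81.3 and 124 against 96.2, 97.6 and 89.6 CPM) and Cacna2d3 (28.0, 34.0 and 28.3 against 39.3, 27.8 and 34.2 CPM) were not called and had overlapping groups. Cacnb1 lost its call without WT 1, at -0.36.

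Among potassium channels, members of most families were lower in Lmx1b+/-. Kcnc4, of the Kv3 family, stood at 58.9, 50.1 and 54.7 CPM in WT and 19.2, 27.4 and 23.3 CPM in Lmx1b+/- (log2 fold change -1.23, SE 0.13, adjusted p = 2.05e-05). Kcna2, an axonal Kv1 subunit, stood at 70.6, 79.3 and 63.3 CPM in WT against 33.8, 32.5 and 39.7 CPM (log2 fold change -1.01, SE 0.11, adjusted p = 2.22e-05). Kcnq3, a subunit of the M current, stood at 100.3, 112 and 92.8 CPM in WT against 60.7, 49.8 and 53.4 CPM (log2 fold change -0.90, SE 0.10, adjusted p = 3.19e-05), and Kcnc1 at 109.6, 80.6 and 77.8 CPM in WT against 41.4, 49.2 and 39.5 CPM (log2 fold change -1.04, SE 0.14, adjusted p = 0.000108). All 3 Kv4 genes, which carry the transient A-type current, were called, with Kcnd2 changing least at -0.39 and losing its call without WT 2 (-0.31) or Lmx1b+/- 2 (-0.27). Kcna1 was scarce in these libraries, at 5.80, 5.68 and 2.79 CPM in WT and 1.56, 1.48 and 2.64 CPM in Lmx1b+/-, and was also called lower (log2 fold change -1.31, SE 0.29, adjusted p = 0.00364). Some well expressed potassium channel genes were not called and overlapped between the groups: Kcnh7 stood at 33.5, 46.5 and 39.97 CPM in WT against 38.3, 31.7 and 39.2 CPM, and Kcna4, another Kv1 subunit, at 13.7, 17.0 and 13.5 CPM in WT against 15.9, 11.6 and 16.0 CPM. Kcnv1, a silent subunit that pairs with Kv2, was the exception in direction, at 10.1, 11.2 and 11.3 CPM in WT and 15.9, 13.1 and 19.4 CPM in Lmx1b+/- (log2 fold change 0.57, SE 0.14, adjusted p = 0.00745), and was called in all 9 fits that left out 1 library. Cacna1f, at -1.60, had the largest difference without a call and lay below 1 CPM in every library.

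The pacemaker genes Hcn2, Hcn3 and Hcn4 were called lower in Lmx1b+/-. Hcn2 stood at 58.5, 41.6 and 41.3 CPM in WT and 25.2, 25.8 and 22.7 CPM in Lmx1b+/- (log2 fold change -0.94, SE 0.14, adjusted p = 0.000174). Hcn4 stood at 67.5, 49.5 and 54.5 CPM in WT against 38.5, 38.7 and 32.0 CPM (log2 fold change -0.65, SE 0.13, adjusted p = 0.00179) and Hcn3 at 81.4, 64.6 and 67.1 CPM in WT against 44.8, 45.4 and 42.1 CPM (log2 fold change -0.69, SE 0.11, adjusted p = 0.000462).

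**Figure D3:**
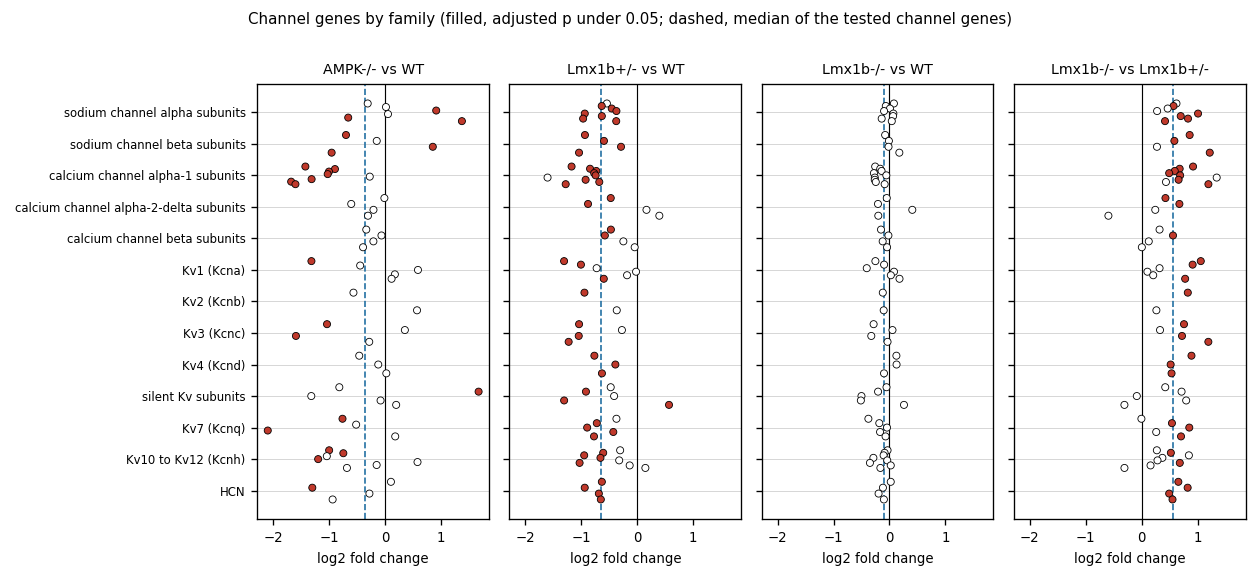
Log2 fold changes of the tested channel genes by family in the 4 comparisons, filled where the adjusted p was under 0.05, with the dashed line at the median of the tested channel genes. The medians were -0.37 in AMPK-/- and -0.64 in Lmx1b+/- against WT, -0.10 in Lmx1b-/- against WT and 0.56 in Lmx1b-/- against Lmx1b+/-.

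Markers of other cell types also differed in these libraries, with counts to be read against the 19.4% of all tested genes that were called higher and the 17.3% called lower. Erythroid genes summed to 3547 to 7511 CPM in Lmx1b+/- against 509 to 1248 CPM in WT, with 6 of 6 called higher, and neural progenitor genes to 1280 to 2022 CPM against 942 to 1005 CPM, although with 2 of 8 called higher and a median log2 fold change of 0.0214 that list lay near all genes. Oligodendrocyte genes summed to 203 to 263 CPM against 291 to 345 CPM, with 7 of 9 called lower, and 4 of 7 astrocyte genes were called lower. Of 7 tested cerebellar granule and Purkinje cell genes, 3 were called lower and 0 higher, with a median log2 fold change of -0.65. The cerebellar sum was lower in every Lmx1b+/- library than in every WT library. Of 10 pan-neuronal genes, by contrast, 2 were called higher and 2 lower, and their sum was 5480 to 6348 CPM in Lmx1b+/- against 5118 to 5641 CPM in WT. Sensory ganglion markers summed to 108 to 119 CPM against 63.3 to 89.9 CPM, with 3 of 7 called higher and 2 lower, 5 of 9 hindbrain Hox genes were called higher, and choroid plexus genes ranged from 87.8 to 1708 CPM within Lmx1b+/-. No gene of the erythroid, progenitor, oligodendrocyte, astrocyte or neuronal lists was at 0 in any group. The ranges of the neuronal sum overlapped, and the part of neuron number and of the other cell types in the lower channel RNA was not tested.

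In Lmx1b-/- against WT the median stood at -0.10 over the channel genes and 0.01 over all tested genes, and 50 of 66 channel genes lay below 0. In this comparison 0 of 66 channel genes were called by edgeR's quasi-likelihood test, DESeq2 or limma, and 3 had an unadjusted p under 0.05 (Cacna1a and Cacna2d3 among them), beside 4 genes (0.0184%) called and 8.09% at an unadjusted p under 0.05 over all genes. The largest differences were -0.51, -0.50 and -0.41 for Kcng3, Kcng2 and Kcna3 and 0.41, 0.26 and 0.18 for Cacna2d3, Kcnv1 and Kcna6. A p that misses the threshold does not show equal levels: Cacna1a, for example, stood at 75.2, 66.1 and 80.6 CPM in Lmx1b-/- against 91.2, 90.7 and 83.0 CPM in WT, with every Lmx1b-/- library below every WT library. Such a separation below WT was found for 7 of the 66 channel genes (10.6%, against 6.09% of all tested genes) and one above WT for 3 (4.55%, against 11.9%). Among the marker lists the median was 1.78 for forebrain, 1.26 for choroid plexus, 0.70 for erythroid and -0.66 for cerebellar genes. In these lists 1 gene, a cerebellar one, was called, and it was lower. The part of these tissues in the channel levels was not tested.

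Set against Lmx1b+/-, the Lmx1b-/- libraries held more channel RNA. Of the 66 genes, 37 (56.1%) were called higher and 0 lower, whereas over all tested genes 25.5% were called, 11.5% higher and 14% lower. Long genes in general were also higher here, with r = 0.45 between log2 fold change and log2 length over all tested genes. With the length trend of each library removed, 24 of the 66 channel genes and 3663 of all 21729 genes were called. With the GC trend removed as well, 23 channel genes and 3814 of 21245 genes were called. The comparison shares its Lmx1b+/- libraries with the one against WT, so the 2 sets of changes are not independent. Kcnc4 stood at 49.1, 50.7 and 60.0 CPM in Lmx1b-/-, Kcna2 at 63.5, 69.9 and 66.1 CPM, Kcnq3 at 102, 97.5 and 96.7 CPM and Scn8a at 87.8, 87.7 and 93.4 CPM, each library above every Lmx1b+/- library given above. Such a separation held for 45 of the 66 channel genes (68.2%) and for 21% of all tested genes. The changes against Lmx1b+/- were 1.19 (SE 0.13, adjusted p = 6.09e-05), 0.91 (SE 0.11, adjusted p = 9.91e-05), 0.85 (SE 0.10, adjusted p = 9.94e-05) and 0.83 (SE 0.10, adjusted p = 0.000134). Hcn2, Hcn3 and Hcn4, all 3 Kv4 genes and 7 of 9 alpha-1 genes were among the 37. In every fit that left out 1 library 30 of the 37 were called, and Cacna1d, Kcna1, Kcnh6, Scn4b, Scn7a and Scn9a were among the 7 that lost their call in at least 1. For 41 of the 66 channel genes (62.1%) all 3 Lmx1b+/- libraries lay below all 6 other libraries of the experiment, which held for 15.6% of all tested genes. The summed level of the 73 genes was 3481 to 3622 CPM in WT, 2244 to 2522 CPM in Lmx1b+/- and 3282 to 3519 CPM in Lmx1b-/-. The lowest sums were thus those of the libraries labelled Lmx1b+/-, whose Lmx1b level, given above, overlapped that of WT. The erythroid sum, at 1060 to 2380 CPM in Lmx1b-/-, likewise lay nearer to WT. Other marker lists also differed between Lmx1b-/- and Lmx1b+/-. Of the tested genes, 8 of 9 oligodendrocyte, 5 of 7 astrocyte and 5 of 8 forebrain genes were called higher and 0 lower. In the other direction, 3 of 8 progenitor and 6 of 6 erythroid genes were called lower and 0 higher. Of 10 pan-neuronal genes, 2 were called higher and 0 lower. Of 7 tested cerebellar genes, 0 were called higher and 0 lower, with a median of -0.20. The part of these cell types in the channel differences was not tested.

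Channel genes are long, with a median length of 6550 bases implied by the deposited values. The medians of the genes tested in the AMPK and Lmx1b experiments were 3927 and 3432 bases. Long genes in general were lower in AMPK-/- and in Lmx1b+/- than in WT. Over all tested genes the log2 fold change fell with log2 length at r = -0.36 in AMPK-/- and -0.42 in Lmx1b+/- (across genes, which are not independent replicates). In Lmx1b-/- r was -0.09 against WT and 0.45 against Lmx1b+/-. In the longest of 5 equal classes, above 7134 bases, the median of all genes was -0.23 in AMPK-/- and that of the 32 channel genes in the class was -0.35. In Lmx1b+/- the longest class, above 6490 bases, had a median of -0.28 over all genes and -0.70 over its 34 channel genes, and 40.5% of all its genes were called lower against 26 of the 34. In Lmx1b-/- against Lmx1b+/- the same class had a median of 0.24 over all genes and 0.58 over its channel genes. There 30.3% of all its genes were called higher, against 23 of the 34. The channel genes lay below the class median also in the shorter classes, with -0.54 and -0.60 against -0.04 and -0.16 in the third and the fourth class of the Lmx1b+/- comparison, and -0.25 and -0.78 against -0.03 and -0.14 in those of the AMPK-/- comparison. Within the set, length and change were almost unrelated (r = 0.04 over 60 genes in AMPK-/- and -0.05 over 66 in Lmx1b+/-). When the trend of each library on length was removed, the median channel gene still stood at -0.20 in AMPK-/- and -0.42 in Lmx1b+/-, 16 and 33 channel genes were called, and 15 of the 23 and 32 of the 48 first calls remained. Over all genes in these fits, 901 of 17397 were called in AMPK-/- and 6269 of 21729 in Lmx1b+/-. Among the calls lost were those of Scn8a (-0.30), Cacna1b (-0.64) and Cacna1c (-0.62) in AMPK-/-, and those of Scn1a (-0.33), Scn2a (-0.12), Scn3a (-0.06), Cacna1c (-0.33), Cacna1e (-0.32), Cacna1h (-0.39), Cacna2d1 (-0.16) and Kcnd2 (-0.26) in Lmx1b+/-. With GC content removed as well, 8 of the 23 calls remained in AMPK-/- (Cacna1a, Kcna1, Scn4b, Kcng1, Scn3b and Scn9a among them) and 32 of the 48 in Lmx1b+/-, at medians of -0.16 and -0.38. Over all genes, 361 of 17169 were then called in AMPK-/- and 5995 of 21245 in Lmx1b+/-. In this last fit Cacna1a stood at -0.89 in AMPK-/- and -0.68 in Lmx1b+/-.

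**Figure D4:**
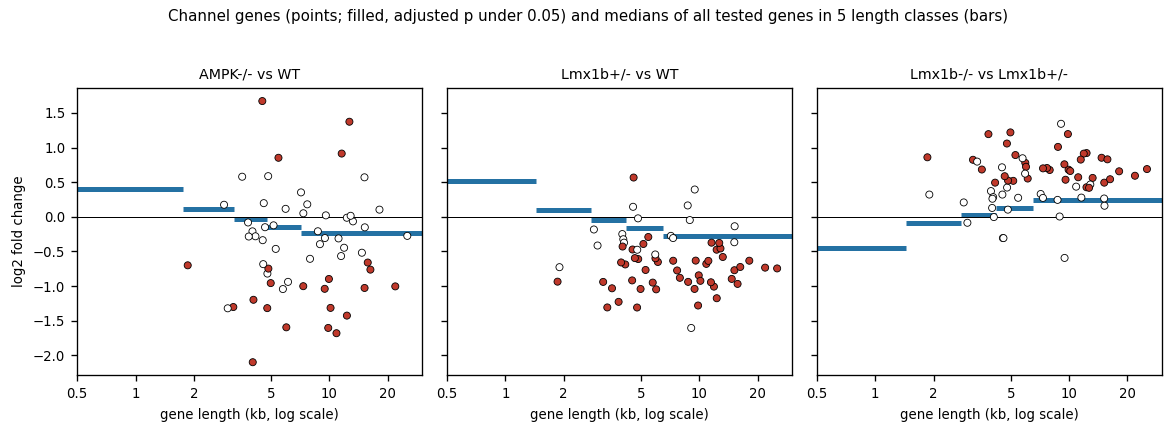
Log2 fold change of each tested channel gene against gene length in kilobases on a log axis, filled where called, with bars at the median of all tested genes in 5 length classes. The points of the Lmx1b+/- comparison lie mostly below the bars of their classes, as in the longest class, where the medians are -0.70 and -0.28, and those of Lmx1b-/- against Lmx1b+/- mostly above.

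The 2 experiments shared no library, so their channel calls could be set side by side. Of the 19 genes called lower in AMPK-/-, 17 (89.5%) were also called lower in Lmx1b+/-, which is 36.2% of the 47 called there. They included Cacna1a, Cacna1b, Cacna1c, Cacna1d, Cacna1g, Cacna1h, Cacna1i, Hcn2, Kcna1, Kcnc1, Kcnh2, Scn4b and Scn8a. The 4 genes called higher in AMPK-/- (Scn3a, Scn9a, Scn3b and Kcng1) were all called lower in Lmx1b+/-. Both overlaps are to be read against the 71.2% of the 66 tested channel genes that were called lower in Lmx1b+/-. The overlap over all genes was not counted. Over the 59 genes tested in both, 40 lay below 0 in both. Of all tested channel genes, 73.3% lay below 0 in AMPK-/- and 93.9% in Lmx1b+/-. The log2 fold changes of the 59 genes correlated at r = 0.35 (rho = 0.45), a description across genes whose changes may also share the trends on length and GC content of both experiments.

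Levels per length (RPKM, the authors' normalization) differed between the experiments, but the age of the mice, the dissection and the experiment cannot be told apart and no test was made. Oligodendrocyte markers summed to 13929 to 23988 CPM in the AMPK experiment and 203 to 376 CPM in the Lmx1b experiment. In WT of the AMPK experiment Hcn2 stood at 92.4 ± 13.2 RPKM (mean ± SD, n = 3), Scn4b at 60.8 ± 25.1 and Kcna2 at 36.4 ± 13.4 RPKM. In prenatal WT the order was led by Scn3b (48.7 ± 8.66), Cacnb3 (30.1 ± 9.13), Kcnd2 (28.9 ± 4.12), Cacnb1 (18.8 ± 4.35) and Hcn3 (18.2 ± 2.31), and Scn4b stood at 0.356 ± 0.0962 RPKM. The lowest library of Scn3b lay above the highest of Cacnb3, and the next neighbours overlapped except that Kcnd2 lay above Cacnb1. The RPKM divide by totals of which 1 gene held 4.56% to 22.7%, so shares within a family and library, in which the total cancels, are safer. Among the sodium channel alpha genes, Scn1a made up 50.8% ± 1.48 of the summed RPKM in WT of the AMPK experiment and 10.4% ± 0.325 in prenatal WT, Scn8a 28.9% ± 3.54 and 12.9% ± 0.701, Scn2a 10.996% ± 1.70 and 34.9% ± 1.92, and Scn3a 5.56% ± 2.23 and 32.9% ± 0.828. Scn1a and Scn8a, known as the adult pair, led in the AMPK experiment, and Scn2a and Scn3a, known from immature neurons, led before birth. Hcn2 made up 90.5% ± 0.751 of the HCN sum in the first and 34.3% ± 1.82 in the second, where Hcn3 and Hcn4 held 40.1% ± 1.14 and 21.8% ± 0.946. In the Kv1 family Kcna1 and Kcna2 held 30.2% ± 10.005 and 47.5% ± 9.43 in the AMPK experiment, and Kcna6 led in the prenatal one with 40.5% ± 4.33.

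The make-up of a family also differed between genotypes within an experiment. Hcn2 held 89.7% to 91.1% of the HCN sum in the WT libraries of the AMPK experiment but 77.5% to 83.9% in AMPK-/-. Scn9a held 0.969% to 1.52% of the sodium channel alpha sum in WT and 3.44% to 4.83% in AMPK-/-. Neither pair of ranges overlapped. In Lmx1b+/- the share of Scn8a was 8.07% to 11.8% against 12.2% to 13.6% in WT and 11.2% to 13.4% in Lmx1b-/-, and that of Scn3a 33.9% to 38.3% against 32.3% to 33.9% and 31.5% to 32.3%. With 3 libraries a side no exact test can reach 0.05 (smallest two-sided p 0.1), so these are given as ranges.

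**Figure D5:**
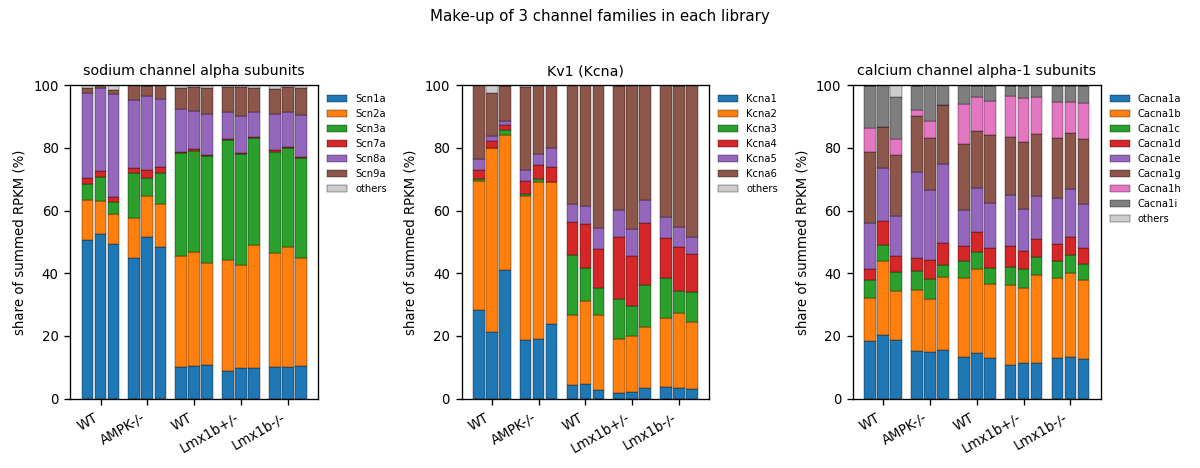
Share of each gene in the summed RPKM of its family, 1 bar per library, for sodium channel alpha, Kv1 and calcium channel alpha-1 genes, with groups in the order WT and AMPK-/- of the AMPK experiment and WT, Lmx1b+/- and Lmx1b-/- of the Lmx1b experiment. Scn1a takes the largest part of the sodium channel bars of the AMPK experiment (50.8% ± 1.48 in WT), whereas Scn2a, Scn3a and Kcna6 take larger parts in the Lmx1b experiment.

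Proteins of the axon initial segment and node of Ranvier hold these channels in place. Over all tested genes, 5.17% were called lower and 3.77% higher in AMPK-/-, and 17.3% and 19.4% in Lmx1b+/-, and the counts of the following short lists stand beside those shares. Of 9 tested genes of initial segment and node, 4 were called lower in AMPK-/- and 0 higher, and of 10 tested in Lmx1b+/- 6 were lower and 0 higher. Sptbn4, the spectrin that anchors sodium and Kv7 channels, changed by -1.19 (SE 0.22, adjusted p = 0.00205) in AMPK-/- and -0.93 (SE 0.17, adjusted p = 0.00102) in Lmx1b+/-. Cntnap1, a paranodal adhesion protein, changed by -0.97 (SE 0.20, adjusted p = 0.00545) and -1.19 (SE 0.18, adjusted p = 0.000263), Nfasc by -0.86 (SE 0.18, adjusted p = 0.00439) and -0.88 (SE 0.12, adjusted p = 0.000102), and Ank3, the master scaffold of the initial segment, by -0.58 (SE 0.18, adjusted p = 0.044) and -0.54 (SE 0.13, adjusted p = 0.00463). Of the potassium channel auxiliary subunits, 1 of 10 was called lower in AMPK-/- and 3 of 11 lower and 1 higher in Lmx1b+/-, of the Cacng genes 1 of 6 and 5 of 6 were called lower, and of the 4 FGF homologous factors, which bind sodium channels, Fgf13 was called higher in AMPK-/- and Fgf11 lower in Lmx1b+/-. Of the 3 Kv9 genes 0 and 2 were called lower. Other ion channels outside the set gave the following counts: of the calcium-activated potassium channels 1 of 9 lower in AMPK-/- and 4 of 10 lower and 1 higher in Lmx1b+/-, of the inward rectifiers 1 of 11 higher and then 3 of 13 lower and 1 higher, of the K2P leak channels 1 of 10 and 3 of 10 lower, and of the sodium leak channel genes 0 of 3 and 3 of 3 lower. The potassium channel auxiliary, inward rectifier and K2P lists are short, and their counts were not tested against the shares over all genes. Their median log2 fold changes in Lmx1b+/- were -0.16, -0.17 and -0.40, against -0.03 over all tested genes. In Lmx1b-/- against WT, 0 genes of any of these lists were called.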

How the data were processed

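PolyA RNA of mouse brainstem was sequenced on an Illumina HiSeq from a directional library kit, and per the labels' processing notes reads were aligned with HISAT2 to GRCm39. The authors deposited, per experiment, a table of raw read counts per Ensembl gene and a table of RPKM values, that is counts divided by gene length and library total. The counting tool, annotation, strand setting and use of the kit's molecular indexes were not given in the sources used here, and overlapping or antisense genes may share reads. All 15 sample columns were mapped to a label. The column of AMPK WT 3 carried a suffix, and that of Lmx1b WT 3 carried the number of its library name instead of its label. Both were matched by name to the only label left in their group. Symbols were matched to 51884 of 57180 IDs (90.7%).

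Counts were filtered with filterByExpr, scaled by TMM and tested with edgeR 4.0.16 (glmQLFit and glmQLFTest, R 4.3.3) on genotype alone, separately for the 6 AMPK and the 9 Lmx1b libraries, with Benjamini-Hochberg adjustment over all tested genes. A gene was called at an adjusted p under 0.05, and values are log2 fold changes unless another unit is given. Gene length is that implied by counts and RPKM. Length and GC trends were removed per library by lowess with a span of 0.3 on CPM with a prior count of 2. The fits were tested on simulated data. Alternatives were DESeq2 1.42.0, limma 3.58.1 on log2(RPKM + 1), other scalings and filters, a replicate block and leaving out libraries. The removal of the GC trend was added after the data were seen.

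Genes were named by a rule: up to 15 called genes per direction by smallest adjusted p, the 3 largest changes in each direction, a list of 31 well-studied channels and the 5 highest RPKM per experiment. Some genes that the rule names are not reported here, though counts and medians include them. Paralogs that complete a family, such as Kcnc2 or Kcna4, were named after their values were seen. The members, lists and tests were chosen with earlier results of these data known, so they are not independent of them. Promoters are RefSeq windows of GRCm38.p6, another build than that of the counts. Correlations of deviations between same-numbered samples were -0.121 to 0.0476 in the AMPK and -0.177 to 0.148 in the Lmx1b experiment. They were all negative for Lmx1b+/- and all positive for WT with Lmx1b-/- (0.0758, 0.148 and 0.0974), where 2 of 3 lay under the minimum of 0.1 set for pairing, so no pairing was assumed.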

Additional observations from a re-analysis of the deposited data

How the results depend on the processing

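In AMPK-/- against WT, where 23 channel genes were called, 10 were called by DESeq2 (which gave no adjusted p to 6 of the 23), 0 by limma on log2(RPKM + 1) (22 at an unadjusted p under 0.05), 12 with at least 10 counts in every library, where 28 could be tested, 8 with length and GC trends removed, 0 without both shallow libraries, and 10 to 29 when 1 library was left out. All 23 kept their sign wherever they were tested. Over all genes, 1555 were called, against 650 by DESeq2, 0 by limma, 825 with at least 10 counts, 901 and 361 with the length trend or both trends removed, 6 without the shallow libraries and 548 to 2958 with 1 library left out. In Lmx1b-/- against Lmx1b+/-, where 37 were called, 24 and 23 were called with the length trend or both trends removed. The 48 calls in Lmx1b+/- became 33 and 32 under the same settings and 40 to 47 with 1 library left out. Over all genes, the 4 calls in Lmx1b-/- against WT became 36 by DESeq2 and 329 with every gene of any count tested, and the 5544 against Lmx1b+/- became 3663 with the length trend removed.

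With the replicate number as a block, 25 channel genes were called in AMPK-/-, 41 in Lmx1b+/-, 0 in Lmx1b-/- against WT and 35 against Lmx1b+/-. The labels only number the samples, and 0 of 6 libraries of the AMPK experiment, 0 of 6 of WT and Lmx1b+/-, and 6 of 6 of WT and Lmx1b-/- lay closest to their own number, a hint from the data and not the design.

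Signs turned only for genes without a call. With the length trend removed, the values in AMPK-/- became 0.13 for Cacna1e, 0.26 for Cacna2d1, 0.0144 for Cacna2d3, 0.0239 for Kcnd2 and 0.17 for Kcnh7, those in Lmx1b+/- 0.21 for Cacnb4 and 0.22 for Kcnh7, and those of Lmx1b-/- against Lmx1b+/- -0.22 for Cacnb4 and -0.15 for Kcnh7. With GC removed as well they were 0.0577 for Cacna1e, 0.0282 for Cacna2d1 and 0.26 for Cacnb3 in AMPK-/-, 0.10 for Cacnb3, 0.0448 for Cacnb4 and 0.000381 for Kcnh7 in Lmx1b+/-, and -0.0256 for Cacna1h, -0.12 for Cacnb3, -0.11 for Cacnb4 and -0.0116 for Kcnh7 in Lmx1b-/- against Lmx1b+/-. Limma gave -0.11 for Scn2a in AMPK-/- and -0.0629 for Cacna2d3 in Lmx1b+/-. With at least 10 counts Scn2a stood at -0.000977 in AMPK-/-, and without the shallow libraries Kcnd2 stood at 0.0166. In Lmx1b-/- against Lmx1b+/-, Cacnb4 stood at -0.00833 by DESeq2, -0.0112 with RLE scaling and -0.0026 with every gene of any count. With 1 library left out, AMPK-/- values ranged from -0.10 to 0.0518 for Cacna2d1, -0.37 to 0.0155 for Cacnb3, -0.22 to 0.00975 for Kcnd2 and -0.0869 to 0.16 for Scn2a. Cacnb4 ranged from -0.15 to 0.0639 in Lmx1b+/- against WT and -0.13 to 0.0895 in Lmx1b-/- against Lmx1b+/-, and Kcna3 from -0.72 to 0.12 in Lmx1b-/- against WT. The cause of these shifts was not tested.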
